A study of Mus musculus with 15 samples.

Results

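The comparison described here sets mouse bone marrow-derived macrophages (BMDM) treated with lipopolysaccharide (LPS) against BMDM given vehicle, across all functions of the transcriptome and with attention to genes other than cytokines and interferon-induced genes. The 6 libraries, 3 named LPS and 3 named Control, were taken by their names from a deposited table of 15 libraries. The others in the table are 3 BMDM libraries that received LPS with NZM, an agent the labels do not explain, and 6 libraries of BMSC, and they are not described. All 6 came from wild type mice, with bone marrow as the tissue, and the labels give neither the dose and duration of LPS nor the age of the animals. Polyadenylated RNA was sequenced from stranded libraries, and each value is a TPM, a length-corrected share of a library's transcripts scaled to the same total in every library. Of 56979 gene identifiers, the 14041 with at least 1 TPM in at least 3 of the 6 libraries were tested. The sequencing depth is unknown, because TPM do not keep it.

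LPS is a component of the outer membrane of Gram-negative bacteria. Macrophages sense it through CD14 and the receptor TLR4, which signals through adaptor proteins to the transcription factors NF-kB and AP-1 and to interferon regulatory factors. The response is known best for cytokines, chemokines and interferon-induced genes, but activated macrophages also change their surface receptors, cytoskeleton, metabolism and the enzymes that handle RNA and protein.

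Changes are given as log2 changes, LPS minus Control, on log2(TPM + 1). They were tested with limma across all tested genes with Benjamini-Hochberg adjustment, and a gene was called at an adjusted p under 0.05. Since every library has the same total TPM, abundant transcripts that gain TPM take them from the rest. The median log2 change of all tested genes was -0.49, or -0.50 without Control replicate 3. In the words used here, a gene rose or fell only if it was called in the same direction both as deposited and after every library had been centred on the median of its tested genes. Nothing in the labels says whether replicates are separate animals or cultures, so the p-values reflect the spread among libraries alone, and that spread may be technical.

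The libraries were alike within each group. Correlations of log2(TPM + 1) were 0.987 to 0.990 among Control, 0.993 to 0.994 among LPS and 0.885 to 0.892 between the groups. Mitochondrially encoded transcripts took 4.10% to 4.17% of TPM in Control and 2.92% to 3.09% in LPS. A list of 14 macrophage markers summed to 36073 to 38068 TPM in Control and 28112 to 28343 TPM in LPS. Most of each sum was Lyz2 (mean 22620 TPM in Control and 16306 TPM in LPS), which was not called on both scales. Of these markers 3 rose and 7 fell, and the defining markers Adgre1 (706 to 1097 TPM) and Csf1r (1100 to 625 TPM) were abundant in both groups. Markers of other cell types were present as well. Stromal markers (12 genes) summed to 5499 to 5822 TPM in Control and 4441 to 4706 TPM in LPS, with 2 risen and 0 fallen. Several of them, among these Col1a1 and Sparc, were called lower as deposited but not after centring. Neutrophil markers (14 genes) summed to 1710 to 1897 TPM in Control and 2383 to 2621 TPM in LPS, with 5 risen and 3 fallen. Over all tested genes 15.6% rose and 29.9% fell. Mast cell and basophil markers differed most among libraries of a group. Cpa3, a mast cell protease gene, read 0.73, 331.8 and 116 TPM in Control and 89.0, 95.6 and 79.6 TPM in LPS. The part of these cells in the changes below was not tested. In bulk RNA, fewer cells of a type and less RNA per cell cannot be told apart.

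LPS changed the levels of 6381 genes (45.4% of those tested), of which 2184 rose (15.6%) and 4197 fell (29.9%). As deposited, 11512 genes were called (82%), 2184 higher and 9328 lower (66.4%), so that rises made up 19.0% of calls. After centring 9248 were called (65.9%), 5051 higher (36%) and 4197 lower, and rises made up 54.6%. At least 2-fold, 3452 genes changed (24.6%), of which 1006 genes rose (7.16%) and 2446 fell (17.4%). The 2-fold size was taken as deposited, where the median log2 change of all tested genes was -0.49. Falls therefore met it more easily than rises did. After quantile normalization 2320 genes changed at least 2-fold. The 1006 risen genes took 4.19% to 4.36% of all TPM in the Control libraries and 24.5% to 24.6% in the LPS libraries. The 2446 fallen genes went from 13.03% to 13.40% down to 4.59% to 4.62%. The values of the 3 LPS and 3 Control libraries did not overlap for 1000 of the 1006 and for 2446 of the 2446. This follows in part from the call and the size required. The share over all tested genes is not given, so these counts have no background to be read against.

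**Figure D1:**
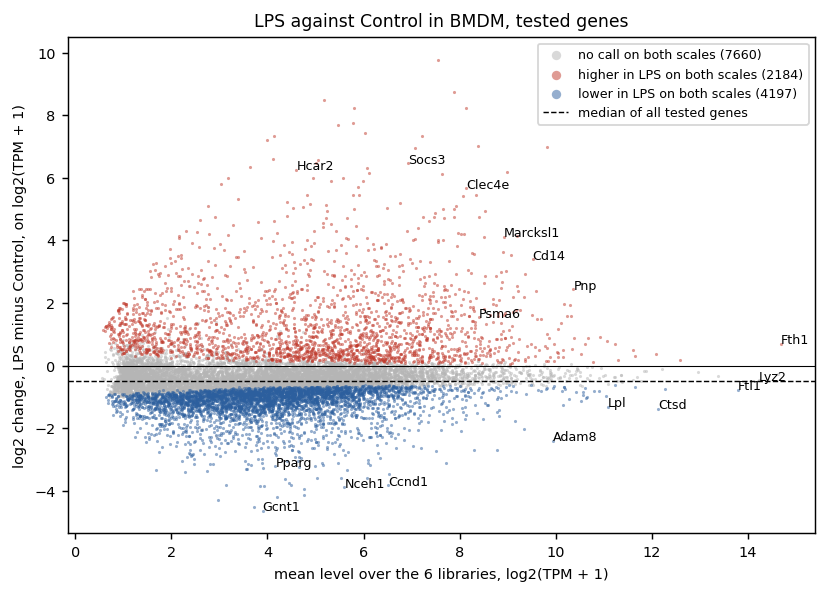
Log2 change of each of the 14041 tested genes (vertical axis, LPS minus Control on log2(TPM + 1)) against its mean level over the 6 libraries (horizontal axis). Red points are the 2184 genes that rose and blue points the 4197 that fell, grey points were not called on both scales, and the dashed line at -0.49 is the median of all tested genes. The rises reach farther from the median than the falls.

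Measured in TPM rather than fold, the large gains outside cytokines included surface receptors, and the large losses included lysosomal genes. Cd14, the co-receptor that hands LPS to TLR4, read 222, 216 and 238.5 TPM in Control and 2378, 2402 and 2407 TPM in LPS. Tnfrsf1b, a receptor for tumour necrosis factor, read 131, 138 and 149 TPM and 2408, 2468 and 2548 TPM. Ctsd, the lysosomal protease cathepsin D, read 7221, 7159 and 7332 TPM in Control and 2766, 2777 and 2848 TPM in LPS (log2 change of -1.37, SE 0.03, adjusted p = 3.32e-09). Psap, the precursor of the saposins that help break down sphingolipids, fell from 6458 ± 132 to 3830.3 ± 201 TPM, and the membrane metalloprotease gene Adam8 from 2260.1 to 429 TPM. None of these overlapped between the groups, and Tnfrsf1b and Adam8 were chosen after their values were seen.

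To look beyond cytokines and interferon genes, genes were set aside by name patterns, and the 12 largest rises among the rest are described. The patterns also took Il4i1, described below, Nos2, Acod1 and the serum amyloid genes, and AW112010 was left out for its irregular symbol. Saa3, an acute-phase gene with a log2 change of 6.97, read 67.8, 61.8 and 122 TPM in Control and 10479, 10201 and 9834 TPM in LPS. Of the 12, Ccrl2, an atypical receptor that binds chemerin, read 1.66, 2.24 and 3.56 TPM in Control and 302, 289.6 and 309 TPM in LPS (log2 change of 6.47, SE 0.17, adjusted p = 2.11e-08). Hcar2, the receptor for niacin and ketone bodies, read 1.36, 1.5 and 2.65 TPM in Control and 199, 212 and 221 TPM in LPS (log2 change of 6.25, SE 0.15, adjusted p = 1.42e-08). Ptges, the inducible prostaglandin E synthase, read 5.78, 6.19 and 10.4 TPM in Control and 574, 584 and 596 TPM in LPS (log2 change of 6.15, SE 0.18, adjusted p = 3.24e-08). In all of these 12 rises Control replicate 3 held the highest Control value, yet it lay far below every LPS library. Socs3, a feedback inhibitor of cytokine receptors, went from 12.2 ± 3.24 to 1138 ± 8.22 TPM (mean ± SD, n = 3 libraries in each group, here and wherever a pair of means is given). The sugar transporter gene Slc2a6 (5.99), the costimulatory receptor gene Cd40 (5.90), the early activation antigen gene Cd69 (5.99), the survival gene Bcl2a1d (5.90), U90926 (6.60) and Shisa3 (5.80) had log2 changes, given in parentheses here and below, of similar size. Bcl2a1d has near-identical copies, so its value is uncertain. Slc7a2 and Clec4e, described with their groups, complete the 12.

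The 12 largest falls were smaller, from -4.63 to -3.80 on the log2 scale, and no gene was set aside by name among them. Gcnt1, which makes the core 2 branch of O-glycans, read 66.7, 77.0 and 76.3 TPM in Control and 2.43, 1.76 and 1.85 TPM in LPS (log2 change of -4.63, SE 0.10, adjusted p = 7.64e-09). Hip1, an endocytic adaptor of clathrin and actin, read 110.4, 116 and 109 TPM in Control and 5.75, 5.27 and 5.40 TPM in LPS (log2 change of -4.12, SE 0.05, adjusted p = 7.87e-10). Ccnd1, which encodes cyclin D1, read 328, 353 and 347 TPM in Control and 23.8, 22.2 and 24.5 TPM in LPS (log2 change of -3.81, SE 0.05, adjusted p = 7.87e-10). Within each group these values were tight, and Control replicate 3 lay between or close to the other Control libraries. Pdxk, the kinase that activates vitamin B6, went from 105 ± 2.94 to 5.97 ± 0.151 TPM, and Rab3il1, an exchange factor for Rab GTPases, from 77.4 ± 1.55 to 3.27 ± 0.339 TPM. Susd3 (-4.50), Tmem37 (-3.83), the palmitoyltransferase gene Zdhhc14 (-3.81) and the lysoplasmalogenase gene Tmem86a (-3.80) also fell. Nfatc2, Nceh1 and Sesn1 belong to groups below.

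**Figure D2:**
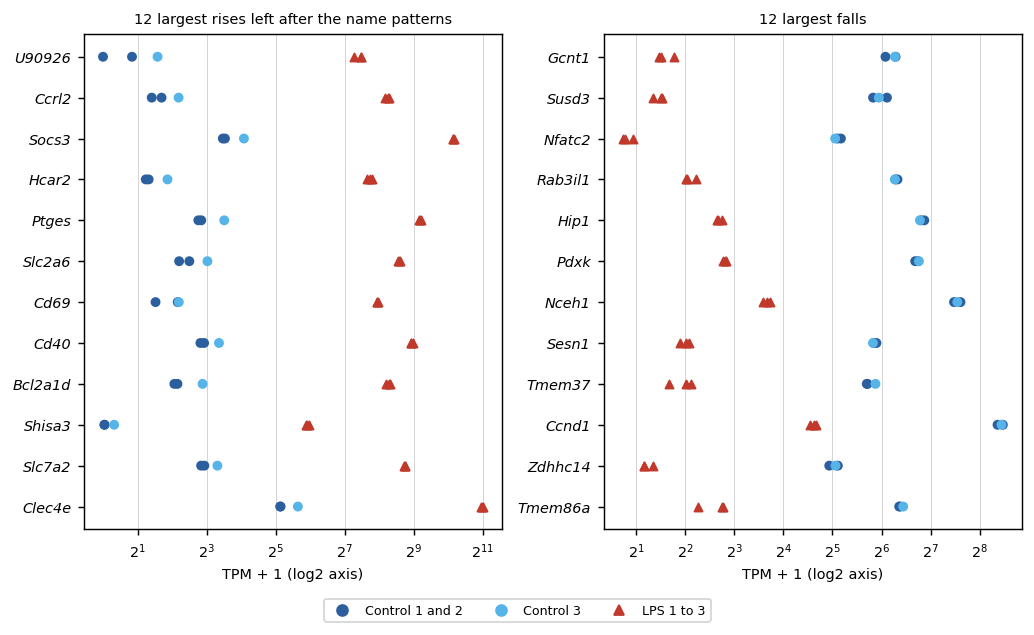
TPM + 1 on a log2 axis for the 12 largest rises left after the name patterns (left) and the 12 largest falls (right), with 1 point per library. Circles are Control (light blue for replicate 3) and triangles LPS. No circle overlaps a triangle, and in the left panel the light blue circle is the highest Control value of all 12 genes.

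Promoter sequences are shown for genes that moved far and stand for different groups, 4 that rose (Ccrl2, Clec4e, Serpinb2, Upp1) and 1 that fell (Sesn1). Each is the 250 bases before an annotated RefSeq start (GRCm38.p6, an older build than the GRCm39 of the deposited values), 5′ to 3′ on the gene's strand, and where RefSeq lists several starts, the one shown was chosen for the motifs it holds. The motifs used for this choice differed between genes. They were NF-kB for Ccrl2, AP-1, C/EBP and TATA for Serpinb2, AP-1 for Upp1 and the GC box for Sesn1. Clec4e had 1 listed start. Differences between the printed promoters therefore follow in part from the choice. Capitals mark every match, on either strand, to the 7 motifs searched in the next paragraph. Ccrl2 holds an NF-kB match, a GC box and 2 CCAAT boxes, and Clec4e a C/EBP, a TATA and a CCAAT match. Serpinb2 holds C/EBP, AP-1, TATA and CCAAT matches, and Upp1 an AP-1 match and a GC box. Sesn1 holds 4 GC boxes and a CCAAT box, so among the 5 promoters GC and CCAAT boxes are not limited to the fallen gene.
Ccrl2, chr9:111057519-111057768, minus strand: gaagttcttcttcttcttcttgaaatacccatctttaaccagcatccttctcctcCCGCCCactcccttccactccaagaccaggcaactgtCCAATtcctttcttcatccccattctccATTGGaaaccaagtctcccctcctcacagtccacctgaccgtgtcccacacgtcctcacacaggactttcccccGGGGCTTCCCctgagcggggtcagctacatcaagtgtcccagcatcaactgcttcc
Clec4e, chr6:123289872-123290121, minus strand: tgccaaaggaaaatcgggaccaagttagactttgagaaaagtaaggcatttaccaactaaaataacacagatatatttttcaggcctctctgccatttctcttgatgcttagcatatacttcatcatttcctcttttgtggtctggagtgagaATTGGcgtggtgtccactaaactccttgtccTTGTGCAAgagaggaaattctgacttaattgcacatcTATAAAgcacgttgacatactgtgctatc
Serpinb2, chr1:107511173-107511422, plus strand: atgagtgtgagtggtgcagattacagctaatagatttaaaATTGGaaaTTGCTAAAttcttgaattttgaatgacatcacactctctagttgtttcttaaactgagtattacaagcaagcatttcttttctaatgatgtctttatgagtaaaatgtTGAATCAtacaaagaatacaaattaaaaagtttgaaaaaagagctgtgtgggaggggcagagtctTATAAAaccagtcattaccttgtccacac
Upp1, chr11:9117758-9118007, plus strand: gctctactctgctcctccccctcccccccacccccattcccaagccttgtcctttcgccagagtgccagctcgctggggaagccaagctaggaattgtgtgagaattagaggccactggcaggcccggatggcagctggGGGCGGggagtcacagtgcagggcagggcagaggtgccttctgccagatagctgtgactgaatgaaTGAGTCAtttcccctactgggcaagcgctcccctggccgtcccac
Sesn1, chr10:41810324-41810573, plus strand: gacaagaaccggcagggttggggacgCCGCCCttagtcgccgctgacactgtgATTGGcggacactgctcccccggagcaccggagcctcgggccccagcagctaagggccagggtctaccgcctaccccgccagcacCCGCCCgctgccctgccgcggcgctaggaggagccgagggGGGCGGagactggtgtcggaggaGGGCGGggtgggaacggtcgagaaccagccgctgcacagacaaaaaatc

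The NF-kB match of Ccrl2 began 56 bases before the start. In both Clec4e and Serpinb2 a TATA match began 29 bases before it, with a C/EBP match at 66 bases in Clec4e and an AP-1 match at 94 bases in Serpinb2. Over all tested genes, RefSeq gave 12597 such windows for 9867 genes, of which 899 belonged to genes risen at least 2-fold and 2462 to genes fallen at least 2-fold. Both strands were searched, no motif contains another, and matches can share bases. The NF-kB consensus was present in 13.9% of risen, 9.10% of fallen and 9.01% of all windows. AP-1 (TGANTCA) was in 9.12%, 4.75% and 4.89%, C/EBP (TTGCNNAA) in 12.9%, 7.39% and 7.84%, and PU.1 (GAGGAAGT) in 5.34%, 2.40% and 2.70%. The TATA box (TATAAA) was in 12.01%, 5.61% and 6.57%. The GC box (GGGCGG) went the other way, with 43.8%, 57.8% and 56.6%, as did the CCAAT box (CCAAT) with 29.9%, 37.6% and 35.3%. In the 770 risen windows left after the same name patterns the shares were 12.5% for NF-kB, 7.14% for AP-1, 13.5% for C/EBP and 9.74% for TATA. These shares are descriptions without a test, and a match of letters is not a bound site.

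**Figure D3:**
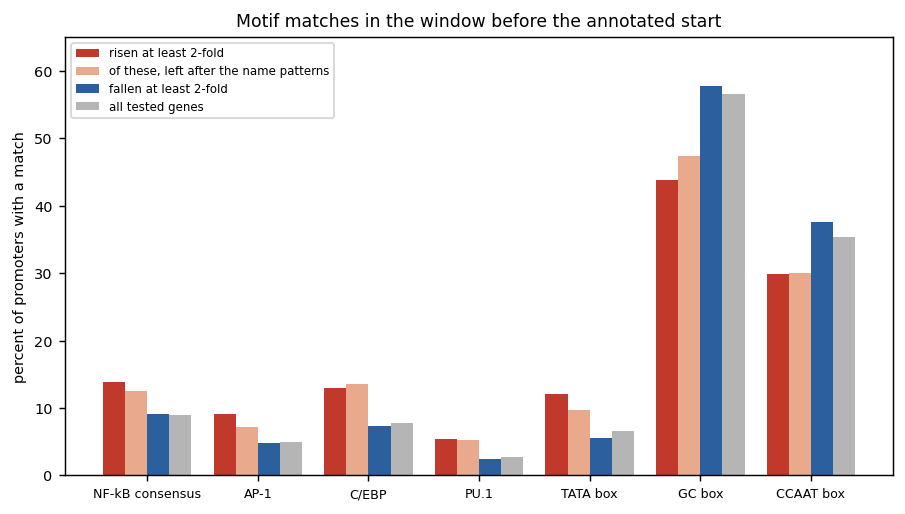
Percent of promoter windows holding each motif on either strand, for genes risen at least 2-fold (red), the same left after the name patterns (light red), genes fallen at least 2-fold (blue) and all tested genes (grey). The red bars stand above the grey for NF-kB, AP-1, C/EBP, PU.1 and TATA and below it for the GC and CCAAT boxes.

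The functions beyond cytokines were followed in 48 lists of genes, of which 45 are described. For each, the members that rose and fell are to be read against 15.6% and 29.9% of all tested genes, and the median log2 change of the tested members against -0.49. Members that passed the level filter are the tested ones.

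**Figure D4:**
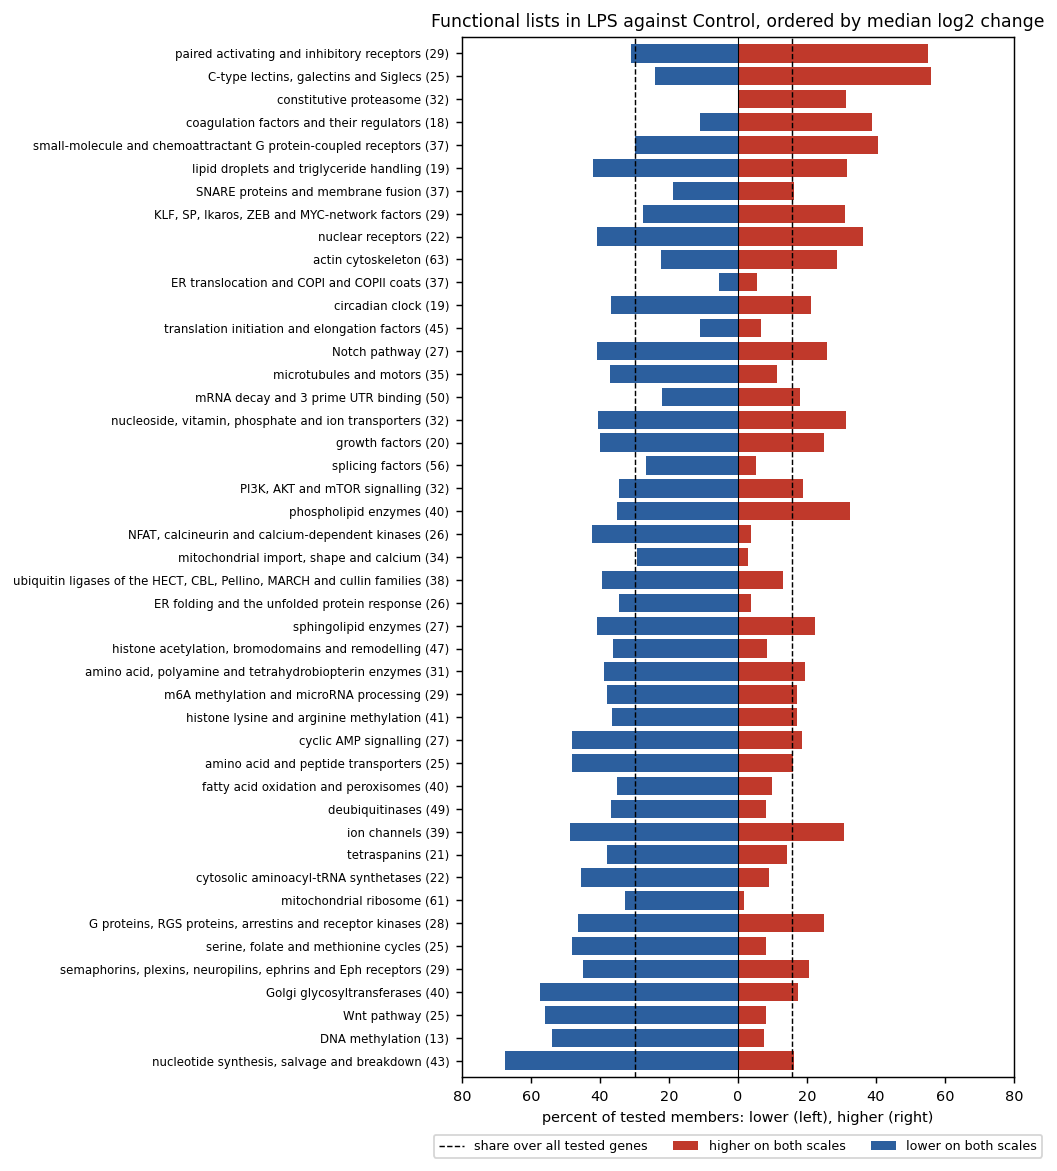
Percent of the tested members (number in parentheses) that fell (blue, left) or rose (red, right) in each of 45 of the lists, ordered by median log2 change. Dashed lines mark the shares over all tested genes, 29.9% fallen and 15.6% risen. Paired receptors and C-type lectins lie at the top with more risen members than fallen, and nucleotide metabolism, DNA methylation and Wnt genes at the bottom.

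Surface receptors moved in both directions. Among C-type lectins, galectins and Siglecs, 14 of 25 tested members rose and 6 fell (median 0.55). Clec4e, which encodes Mincle, a receptor for mycobacterial cord factor, read 34.1, 34.4 and 49.0 TPM in Control and 2065, 2013 and 1972 TPM in LPS (log2 change of 5.67, SE 0.13, adjusted p = 8.52e-09). Siglece, an inhibitory receptor for sialic acid, went from 7.37 ± 0.823 to 78.4 ± 2.45 TPM, and Clec5a from 99.1 ± 6.10 to 348 ± 18.3 TPM. Falling members were Cd93 (-2.95), Clec10a (-2.47) and the mannose receptor gene Mrc1 (-1.67). In families of paired activating and inhibitory receptors, 16 of 29 tested members rose and 9 fell (median 0.62). Slamf7 read 59.98, 63.6 and 65.05 TPM in Control and 1152, 1178 and 1169 TPM in LPS (log2 change of 4.19, SE 0.04, adjusted p = 3.87e-10). Trem1, which amplifies inflammatory signals, went from 6.14 ± 0.761 to 36.8 ± 3.34 TPM and the inhibitory Pilra from 42.8 ± 1.40 to 212 ± 2.71 TPM. Falling members included Cd300lb, from 212 ± 4.56 to 22.5 ± 1.44 TPM, Cd300a, from 66.9 ± 1.68 to 12.1 ± 0.515 TPM, and Cd84 (-2.05). Neutrophils share several of these receptors. Of 14 neutrophil markers 5 rose and 3 fell, against 15.6% and 29.9% of all tested genes. The part of neutrophils in these changes was not tested.

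G protein-coupled receptors for small molecules and chemoattractants also split, and 15 of 37 tested members rose and 11 fell (median -0.08). Fpr1, the receptor for bacterial formyl peptides, read 35.9, 36.4 and 50.2 TPM in Control and 1755, 1732 and 1766 TPM in LPS (log2 change of 5.41, SE 0.12, adjusted p = 6.85e-09). Gpr84, a receptor for medium-chain fatty acids, went from 32.4 ± 1.16 to 972 ± 35.3 TPM. The falls included Lpar6, a lysophosphatidic acid receptor, from 36.1 ± 0.897 to 2.77 ± 0.497 TPM, Gpr183, the oxysterol receptor, from 36.3 ± 3.005 to 2.81 ± 0.465 TPM, and C5ar2, a receptor for complement C5a, from 13.5 ± 1.56 to 0.947 ± 0.265 TPM. Downstream of these receptors, 7 of 28 tested members rose and 13 fell (median -0.65) among G proteins, RGS proteins, arrestins and receptor kinases. Rgs16 rose (1.45), while Rgs2 (-2.79), the arrestin gene Arrb1 (-2.42) and Gna12 (-2.21) fell.

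Ion channel genes changed more often than the background in both directions, and 12 of 39 tested members rose and 19 fell (median -0.59). Mcoln2, an endolysosomal cation channel, rose from 13.8 ± 0.538 to 109 ± 1.87 TPM, and Lrrc8c, a subunit of volume-regulated anion channels, from 11.3 ± 0.556 to 64.3 ± 1.03 TPM. Potassium channels divided, with Kcna3 rising from 4.79 ± 0.817 to 24.8 ± 1.56 TPM and Kcnk13 and Kcnn4 falling from 63.6 ± 1.01 to 8.69 ± 0.508 TPM and from 226 ± 4.84 to 44.4 ± 2.45 TPM. Tpcn1, another endolysosomal channel, fell from 38.7 ± 1.05 to 5.52 ± 0.435 TPM. Among tetraspanins 3 of 21 tested members rose and 8 fell (median -0.61), led by Cd82 upward (1.55) and Tspan14 downward (-1.67). Guidance molecules (semaphorins, plexins, neuropilins, ephrins and Eph receptors) had 6 of 29 risen and 13 fallen, with Sema4c at 2.16 and Nrp1 at -2.12.

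Of coagulation factors and their regulators, 7 of 18 tested members rose and 2 fell (median -0.07). Serpinb2, an inhibitor of plasminogen activators, read 43.6, 43.3 and 49.9 TPM in Control and 766, 741 and 731 TPM in LPS (log2 change of 4.01, SE 0.06, adjusted p = 1.03e-09). Procr, the endothelial protein C receptor, rose from 22.2 ± 2.26 to 340.5 ± 8.63 TPM, and F10, the precursor of the protease factor Xa, from 13.2 ± 0.355 to 171 ± 3.79 TPM. Gas6, the ligand of the TAM receptors that take part in clearing dead cells, fell from 254 ± 4.00 to 40.6 ± 3.31 TPM, and F13a1 from 204 ± 2.47 to 74.6 ± 6.58 TPM. Of growth factor genes, 5 of 20 tested members rose and 8 fell (median -0.45), with Vegfc (1.32) and Nrg1 (1.08) rising and Igf1 falling from 342 ± 7.88 to 117 ± 1.83 TPM.

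As among all tested genes (15.6% risen, 29.9% fallen), intracellular signalling genes fell more often than they rose, apart from a few strong rises. In cyclic AMP signalling 5 of 27 tested members rose and 13 fell (median -0.58). Pde4b, a phosphodiesterase that degrades cyclic AMP, read 6.31, 5.12 and 6 TPM in Control and 206, 209 and 206 TPM in LPS (log2 change of 4.94, SE 0.07, adjusted p = 9.88e-10). The adenylyl cyclases Adcy3 (-1.84) and Adcy7 (-1.58), which make it, and the kinase subunit gene Prkacb (-1.84) fell. In PI3K, AKT and mTOR signalling 6 of 32 tested members rose and 11 fell (median -0.48), near the shares over all tested genes. Both regulatory subunits of PI3K gamma rose, Pik3r5 from 79.0 ± 0.625 to 345 ± 5.48 TPM and Pik3r6 from 8.34 ± 0.296 to 55.3 ± 2.20 TPM. Inpp5d, the lipid phosphatase SHIP1 that opposes PI3K, fell from 144 ± 5.71 to 26.8 ± 0.483 TPM. Sesn1, a restrainer of mTORC1 whose promoter with 4 GC boxes is printed above, read 58.5, 56.4 and 55.7 TPM in Control and 3.07, 3.26 and 2.74 TPM in LPS (log2 change of -3.85, SE 0.07, adjusted p = 2.71e-09).

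Among NFAT factors, calcineurin and calcium-dependent kinases 1 of 26 tested members rose and 11 fell (median -0.51). Nfatc2 read 33.4, 35.1 and 32.3 TPM in Control and 0.660, 0.910 and 0.710 TPM in LPS (log2 change of -4.30, SE 0.09, adjusted p = 4.93e-09), below 1 TPM in every LPS library. Nfatc2 thus passed the level filter through the Control libraries alone. The kinases Camk2g (-1.67) and Camk1 (-1.62) fell less. The Notch pathway had 7 of 27 risen and 11 fallen, with Dtx2 (2.75) and Notch2 (1.73) rising and Lfng, a glycosyltransferase that tunes Notch ligand binding, falling from 159 ± 8.14 to 15.1 ± 1.25 TPM. In the Wnt pathway 2 of 25 tested members rose and 14 fell (median -0.90). Fzd1, a Wnt receptor, rose from 9.68 ± 0.244 to 55.2 ± 1.30 TPM, and Tcf7l2, a transcription factor of the pathway, and Ctnnbip1, an inhibitor of beta-catenin, fell from 16.3 ± 1.01 to 2.47 ± 0.208 TPM and from 109 ± 8.40 to 17.6 ± 2.78 TPM.

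In the actin cytoskeleton 18 of 63 tested members rose and 14 fell (median -0.29). Marcksl1, an actin- and membrane-binding protein, read 111, 114 and 123 TPM in Control and 2023, 2001 and 2065 TPM in LPS (log2 change of 4.12, SE 0.04, adjusted p = 4.94e-10). Vasp, which promotes filament elongation, rose from 144 ± 2.53 to 607 ± 5.56 TPM, and Ezr, a linker of actin and membrane, from 57.4 ± 2.01 to 157 ± 2.61 TPM. The formin gene Fmnl1 (-1.91) and the myosins Myo1f (-1.75) and Myo5a (-1.63) fell. Without the filter on low values, 25 actin genes fell, more than rose. All 63 had passed the filter, but without it the median used for centring is taken over more genes. Of microtubule proteins and motors 4 of 35 tested members rose and 13 fell (median -0.43), and the kinesins Kif13b (-1.98) and Kif21b (-1.85) fell most.

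Membrane traffic genes differed between compartments. Of Golgi glycosyltransferases 7 of 40 tested members rose and 23 fell (median -0.77). Beside Gcnt1, Mgat5 fell from 55.1 ± 2.69 to 8.47 ± 0.341 TPM and St6gal1, which adds alpha-2,6-linked sialic acid, from 23.7 ± 1.54 to 3.48 ± 0.696 TPM. B3gnt2, which extends lactosamine chains, rose from 45.1 ± 1.40 to 214 ± 4.32 TPM, and the alpha-2,3-sialyltransferase gene St3gal3 from 14.6 ± 0.492 to 69.7 ± 2.42 TPM. Most genes of ER translocation and vesicle coats were not called on both scales, and 2 of 37 tested members rose and 2 fell (median -0.37). Sec24b, a cargo adaptor of COPII coats, rose from 42.4 ± 1.21 to 100.4 ± 1.32 TPM. In ER folding and the unfolded protein response 1 of 26 tested members rose and 9 fell (median -0.53), with the stress sensors Atf6 (-1.38) and Eif2ak3 (-1.30) lower. Of SNARE proteins and fusion factors 6 of 37 tested members rose and 7 fell (median -0.20), and Stx11, which is needed for granule release in lymphocytes, rose from 6.70 ± 0.385 to 38.8 ± 1.05 TPM.

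Genes of nucleotide metabolism fell in larger part than all tested genes, while a few nucleoside enzymes rose. Of 43 tested genes of nucleotide synthesis, salvage and breakdown, 7 rose and 29 fell (67.4%), with a median log2 change of -0.93. Upp1, which cleaves uridine, read 2.76, 2.82 and 3.60 TPM in Control and 111, 105 and 116 TPM in LPS (log2 change of 4.79, SE 0.09, adjusted p = 3.11e-09). Pnp, which cleaves purine nucleosides, read 574, 554 and 582 TPM in Control and 3103, 3043 and 3103 TPM in LPS (log2 change of 2.43, SE 0.03, adjusted p = 6.02e-10), although the mouse genome holds a close copy with which reads may be shared. Nt5c3, a pyrimidine nucleotidase, rose from 32.9 ± 1.01 to 220.5 ± 3.62 TPM. The nucleoside transporter gene Slc28a2 rose with them, from 8.74 ± 0.224 to 257 ± 7.80 TPM. The fallen members included Ppat, the entry enzyme of purine synthesis (-1.69), Tk2 (-1.68) and Nt5c2 (-1.77). In serine, folate and methionine cycles, which feed nucleotide synthesis, 2 of 25 tested members rose and 12 fell (median -0.65), with Gcsh at -2.08 and Mtr at -1.68.

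Of amino acid and peptide transporters 4 of 25 tested members rose and 12 fell (median -0.58). Slc7a2, which imports arginine, read 6.65, 6.17 and 8.94 TPM in Control and 423, 433 and 427 TPM in LPS (log2 change of 5.71, SE 0.11, adjusted p = 4.15e-09). Ass1, which regenerates arginine from citrulline, rose from 38.3 ± 3.32 to 321 ± 11.1 TPM, and Gch1, which starts the synthesis of the nitric oxide synthase cofactor tetrahydrobiopterin, from 21.7 ± 1.38 to 180.2 ± 2.57 TPM. Kynu, an enzyme of tryptophan breakdown, went from 0.397 ± 0.117 to 9.29 ± 0.439 TPM. Glul, the glutamine synthetase, fell from 318 ± 14.3 to 53.0 ± 0.643 TPM, and the amino acid transporter gene Slc43a2 from 233 ± 10.1 to 18.3 ± 0.813 TPM. Among all enzymes of amino acids, polyamines and tetrahydrobiopterin 6 of 31 tested members rose and 12 fell (median -0.55). Of transporters for nucleosides, vitamins, phosphate and ions 10 of 32 tested members rose and 13 fell (median -0.44), among them the organic anion transporters Slco3a1 (4.30) and Slco2b1 (-2.89). The LPS libraries disagreed on Slco2b1, which read 4.85, 0.980 and 1.24 TPM in them against 18.7, 21.6 and 22.7 TPM in Control.

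Lipid genes moved in both directions. Of genes for lipid droplets and triglycerides 6 of 19 tested members rose and 8 fell (median -0.12). Acsl1, which activates fatty acids, read 26.7, 29.9 and 29.9 TPM in Control and 335, 338 and 341 TPM in LPS (log2 change of 3.51, SE 0.05, adjusted p = 9.88e-10). Dgat2, which completes triglyceride synthesis, rose from 7.41 ± 0.465 to 85.5 ± 1.72 TPM. Nceh1, a hydrolase of cholesteryl esters, read 177, 194 and 185 TPM in Control and 11.0, 11.7 and 12.3 TPM in LPS (log2 change of -3.88, SE 0.05, adjusted p = 1.03e-09), and the lipase gene Lpl fell from 3446 ± 157 to 1390.0 ± 9.07 TPM. Phospholipid enzymes had 13 of 40 risen and 14 fallen, with Lpcat2 (2.31) and Pla2g4a (1.59), which take part in making platelet-activating factor and releasing arachidonic acid, among the rises. Of sphingolipid enzymes 6 of 27 tested members rose and 11 fell (median -0.53), with the ceramide synthase gene Cers6 rising from 219 ± 10.5 to 942 ± 11.8 TPM and the ceramide kinase gene Cerk falling from 101 ± 1.70 to 10.9 ± 0.314 TPM. Fatty acid oxidation and peroxisome genes had 4 of 40 risen and 14 fallen, led by Acox3 (-1.79) and Acadm (-1.64).

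The ferritin chains moved apart. Fth1, the iron-oxidizing heavy chain, read 21164, 20189.7 and 21259 TPM in Control and 33916, 33618 and 33661 TPM in LPS (log2 change of 0.69, SE 0.03, adjusted p = 3.44e-07) and was the most abundant transcript in LPS. Ftl1, the light chain, read 18532, 18315 and 18806 TPM in Control and 11258, 10791 and 10638 TPM in LPS (log2 change of -0.77, SE 0.03, adjusted p = 2.1e-07), a fall on both scales that became 0.000 after quantile normalization. Ftl1 has processed copies in the mouse genome, so its level is uncertain. Nuclear genes for mitochondria shifted little beyond the median. Mitochondrial ribosomal proteins had 1 of 61 risen and 20 fallen (median -0.64), and import, shape and calcium proteins 1 of 34 and 10 (median -0.52).

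Among chromatin genes, those of DNA methylation fell in the largest part. In DNA methylation 1 of 13 tested members rose and 7 fell (median -0.91). Dnmt1, which copies methylation at replication, read 93.3, 96.7 and 92.0 TPM in Control and 17.9, 21.1 and 19.5 TPM in LPS (log2 change of -2.21, SE 0.06, adjusted p = 2.97e-08). Its partner Uhrf1 fell from 44.9 ± 0.0379 to 9.86 ± 1.11 TPM and the de novo enzyme gene Dnmt3a from 33.7 ± 2.20 to 10.3 ± 0.960 TPM. Tet2, which oxidizes methylcytosine, was the 1 that rose, from 8.97 ± 0.756 to 31.2 ± 1.79 TPM. Of histone methylation genes 7 of 41 tested members rose and 15 fell (median -0.57), with the H3K27 demethylase gene Kdm6b (0.95) up and Nsd2 (-2.45) down. Histone acetylation, bromodomain and remodelling genes had 4 of 47 risen and 17 fallen, among them Kat2b (1.19) and Hdac5 (-2.40). The medians of both these lists lay near that of all tested genes.

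Of nuclear receptors 8 of 22 tested members rose and 9 fell (median -0.28). Pparg, the receptor for fatty acid ligands that drives lipid genes in macrophages, read 54.2, 50.1 and 56.8 TPM in Control and 4.56, 5.51 and 4.68 TPM in LPS (log2 change of -3.21, SE 0.08, adjusted p = 1.6e-08). Its partner Rxra fell from 208 ± 13.3 to 37.0 ± 1.26 TPM, whereas the LXR alpha gene Nr1h3 rose from 27.5 ± 2.49 to 46.4 ± 1.75 TPM and Nr4a3 from 0.553 ± 0.117 to 6.76 ± 0.455 TPM. In the circadian clock 4 of 19 tested members rose and 7 fell (median -0.40), with the output factors Dbp (-2.16) and Tef (-1.94) falling and Nfil3, which opposes them, rising (1.29). Of KLF, SP, Ikaros, ZEB and MYC-network factors 9 of 29 tested members rose and 8 fell (median -0.20), with Mycl (2.70) and Mxd1 (2.46) rising and Mxd4 (-1.56) and Mnt (-1.51) falling. Which direction held more members changed under some alternatives in 4 lists, those of nuclear receptors, KLF to MYC factors, SNARE proteins and actin.

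RNA regulation held opposite moves within a protein family. Zfp36, which encodes tristetraprolin and targets AU-rich mRNA for decay, rose from 119.9 ± 5.04 to 624 ± 3.88 TPM, while its relatives Zfp36l2 and Zfp36l1 fell from 209 ± 10.3 to 29.1 ± 1.16 TPM and from 137 ± 8.93 to 44.0 ± 0.776 TPM. These directions were the same as deposited and after centring. Zc3h12a, the endonuclease regnase-1, read 17.6, 17.3 and 19.5 TPM in Control and 242, 239.8 and 254 TPM in LPS (log2 change of 3.69, SE 0.05, adjusted p = 1.07e-09). Over all mRNA decay genes 9 of 50 tested members rose and 11 fell (median -0.43). Of splicing factors 3 of 56 tested members rose and 15 fell (median -0.45), with Celf2 (-2.09) and Mbnl1 (-1.56) lowest. Genes of m6A methylation and microRNA processing had 5 of 29 risen and 11 fallen, and cytosolic aminoacyl-tRNA synthetases 2 of 22 and 10. Of 45 translation factors 3 rose and 5 fell (median -0.40), and Eif4g2 (0.90) and Eef2k (-1.68) stood farthest out. As deposited 39 were called lower. After centring 24 were called higher and 5 lower, against 36% and 29.9% of all tested genes.

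The constitutive proteasome had no fallen member. All 32 subunits were called higher after centring, and as deposited 10 were called higher and 11 lower, so that 10 of 32 rose by the rule used here and 0 fell. Its median log2 change was 0.02, against -0.49 over all tested genes. Psma6, an alpha-ring subunit, read 205, 187 and 201 TPM in Control and 581, 562 and 584 TPM in LPS (log2 change of 1.54, SE 0.04, adjusted p = 2e-08), Psma5 went from 117 ± 4.14 to 217 ± 1.27 TPM and Psmb6 from 213 ± 11.96 to 302 ± 12.3 TPM. Of ubiquitin ligases 5 of 38 tested members rose and 15 fell (median -0.52). March1, which directs MHC class II to degradation, rose from 27.1 ± 1.21 to 266 ± 4.98 TPM and Peli1 from 24.6 ± 0.737 to 118 ± 0.950 TPM. Wwp1, a HECT-type ligase, read 150.0, 168 and 157 TPM in Control and 13.1, 12.04 and 12.01 TPM in LPS (log2 change of -3.57, SE 0.06, adjusted p = 1.55e-09). Deubiquitinases had 4 of 49 risen and 18 fallen, with Usp25 (1.39) and Usp2 (-1.70) at the ends.

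Some genes went from near absence to clear expression. In 39 of the 14041 tested genes all Control libraries were below 1 TPM and all LPS libraries at 5 TPM or more, and 22 showed the reverse. For comparison, 879 identifiers reached 1 TPM in exactly 3 of the 6 libraries. The 39 and 22 genes passed the level filter only through the group where they were high. Their lack of overlap follows from the definition. Nfatc2, Kynu, Nr4a3 and Shisa3 are among them, and the examples that follow were chosen after their values were seen. Il4i1, an amino acid oxidase, read 0.27, 0.36 and 0.54 TPM in Control and 118, 105 and 113 TPM in LPS. Gpr18 read 0.73, 0.42 and 0.24 TPM against 36.6, 37.5 and 38.7 TPM, and Mir155hg, the host transcript of microRNA-155, 0.30, 0.17 and 0.17 TPM against 30.2, 29.6 and 28.2 TPM. Steap4, a metalloreductase, read 0.60, 0.65 and 0.60 TPM against 27.9, 27.8 and 30.4 TPM. On the other side, Ung, the uracil-DNA glycosylase, read 9.03, 9.69 and 9.49 TPM in Control and 0.99, 0.78 and 0.57 TPM in LPS. Guca1a read 9.27, 9.61 and 8.52 TPM in Control and was listed at 0 in all 3 LPS libraries.

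Control replicate 3 was set aside to see which changes rest on it. Without it 6085 genes changed (43.3%), of which 2140 rose (15.2%) and 3945 fell (28.1%), and 3499 changed at least 2-fold (24.9%), 992 upward (7.07%) and 2507 downward (17.9%). Of the 2184 and 4197 called with it, 2098 and 3814 kept their call, 0 turned, and 173 were called only without it. Among genes changed at least 2-fold, the median absolute shift in log2 change was 0.02, and 42 of the 3452 lost their call. Control replicate 3 held the highest Control value in 40.4% of the 1006 risen genes, against 26.4% of all tested genes and 23.5% of the 2446 fallen genes. It exceeded both other Control libraries by over 1.5 times in 60 of the risen genes, as did Control replicate 1 in 37 and Control replicate 2 in 36.

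Among the genes changed at least 2-fold, leaving Control replicate 3 out moved the fold by over 1.5 times in 6, all of them risen. They were Il1b, Acod1, Nos2, Cxcl10, Il1a and Cebpb. Genes outside that set were not counted. Some of those also had a distant Control replicate 3, such as Thy1, which was not called (14.1, 11.2 and 0.93 TPM in Control). Il1b, which encodes the cytokine interleukin-1 beta, read 2.77, 0.94 and 33.9 TPM in Control and 5589, 5542 and 5437 TPM in LPS, and its log2 change went from 9.77 to 11.00. Cebpb, a transcription factor of the C/EBP family, read 14.4, 9.58 and 65.3 TPM in Control and 417, 344 and 197 TPM in LPS. Its log2 change went from 3.79 (limma, adjusted p = 0.000732) to 4.58 without Control replicate 3 (adjusted p = 9.13e-06), and its LPS libraries differed among themselves too. For the 12 largest rises left after the name patterns the log2 changes were higher without it, for example 6.68 for Ccrl2, 6.45 for Hcar2, 6.99 for U90926 and 5.84 for Clec4e. The falls barely moved, with -4.60 for Gcnt1, -4.33 for Nfatc2 and -3.80 for Ccnd1. In the 48 lists the number of risen or fallen members changed by at most 3.

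**Figure D5:**
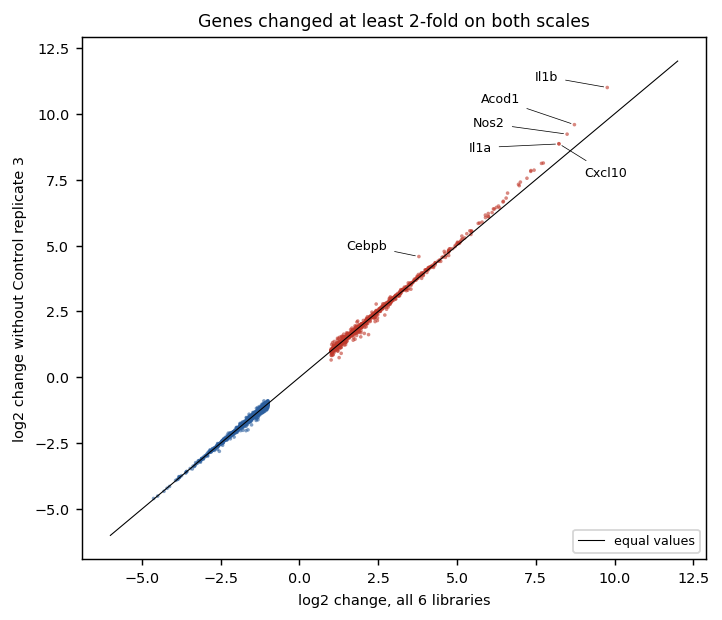
Log2 change without Control replicate 3 (vertical axis) against that from all 6 libraries (horizontal axis), for the 3452 genes changed at least 2-fold. Points on the line have equal values. The 6 named genes lie farthest above it, and the fallen genes (blue) follow it closely.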

How the data were processed

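The deposited values are TPM per gene from the authors' table of 56979 Ensembl identifiers in 15 libraries. Per the submitters' processing notes, fastp, HISAT2, StringTie, RSEM and GRCm39 were used, without stated roles. The TPM show no read counts, so no count model was possible and no interval for counting error is given. The 6 columns of Control and LPS were matched to samples by name.

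Genes with at least 1 TPM in at least 3 of the 6 libraries were kept (14041), and log2(TPM + 1) was compared with limma 3.58.1 (R 4.3.3, intensity trend, Benjamini-Hochberg over all tested genes), as deposited and after median centring. A pseudocount of 1 understates the change of low genes. Symbols were matched for 52072 identifiers. Named genes are the 12 largest rises and falls left after name patterns for cytokine, interferon, serum amyloid, Nos2 and Acod1 genes and irregular symbols, up to 3 of each per list, the 10 most abundant genes of each group and the cell markers, with at least 5 TPM in the higher group and no overlap where a change is named. Other genes named were chosen after their values were seen. The genes and lists were chosen with earlier results of these data known. On simulated data of 14041 genes with 200 changed, 88.4% of changes of 1 and 97.2% of changes of 2 on the log2 scale were recovered, and 4.82% of calls were false. The changed genes were drawn only from those with a Control mean above 1 on log2(TPM + 1), and calls were made without centring. Data with as many changed genes as the 11512 called as deposited were not tested in this way. The share of false calls among the genes that rose or fell here was not tested either. Figures and counts used Python 3.11.15, pandas 2.3.3 and matplotlib 3.10.9. A few genes and 3 lists are not reported here.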

Additional observations from a re-analysis of the deposited data

How the results depend on the processing

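The number of genes called higher as deposited was 2184, and it was 3665 after quantile normalization and 5051 after median centring. The number called lower was 9328, and it was 5824 and 4197 under the same settings. Median centring turned the direction of Apoe (0.26 on the log2 scale), Lyz2 (0.067), mt-Co1 (0.20), Eef1a1 (0.35) and Tmsb4x (0.43), and Ftl1 came to 0.000 after quantile normalization. Leaving out each library in turn gave 11098 to 11413 genes changed as deposited, 2087 to 2154 higher and 8998 to 9273 lower, 5956 to 6085 on both scales and 3376 to 3499 at least 2-fold. With no filter on low values 9296 of 27697 genes changed on both scales, and with a pseudocount of 0.1 it was 6575. Over 298 named genes, 4749 of 4765 values under the alternatives kept direction and call, where the call is that of 1 scale and not of both. Most of these genes had been picked for large, called changes, and the alternatives reuse the same libraries. This share is therefore no independent support. Libraries with the same replicate number did not deviate together (correlations -0.06, 0.03 and 0.04). With 3 libraries in each group this cannot show whether the numbers pair them. With a replicate block 11437 genes changed (2171 higher, 9266 lower), 6228 on both scales and 3449 at least 2-fold. Depth is unknown, so values near 1 TPM carry an error that cannot be stated.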

Other observations

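Transcripts other than mRNA also changed. Of 155 tested long intergenic RNAs 28 rose and 44 fell, and of 191 antisense RNAs 47 rose (24.6%) and 35 fell. Of 830 processed pseudogenes, whose reads can come from their parent genes, 80 rose and 45 fell. These compare with 15.6% risen and 29.9% fallen over all tested genes.

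Mast cell and basophil markers set the Control libraries apart from each other. The 10 markers summed to 17.7 TPM in Control replicate 1, 536 TPM in Control replicate 2 and 203 TPM in Control replicate 3, against 229 to 256 TPM in LPS. Of the 9 tested, only Hdc, the histidine decarboxylase that makes histamine, rose, from 3.41, 4.62 and 4.99 TPM to 73.7, 74.6 and 79.8 TPM. Tpsab1 was listed at 0 in every library. Hdc did not follow Cpa3 among the Control libraries.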
